A study of Homo sapiens with 6 samples.

Results

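The genes described here are the classical cadherins and their catenins, with 1 cadherin of the intestine beside them. The 10 genes CDH1, CDH2, CDH3, CDH4, CDH17, CTNNA1, CTNNA2, CTNNB1, CTNND1 and JUP were taken by gene symbol from the deposited table, which holds 60546 gene identifiers. Each symbol had 1 row in the table. The rule uses the gene symbols and no measured value.

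HCT-116 is an established cell line from a human colon carcinoma. RNA-seq compared HCT-116 cells that carried the viral expression vector PMSCV with a GOLPH3 insert (3 libraries labelled GOLPH3) with cells that carried the empty vector (3 libraries labelled Vector). Both lines were selected with puromycin after transduction and grown in DMEM with 10% fetal bovine serum, and the genotype is given as wild type for all 6 libraries. The RNA came from different generations of the lines, and the titles hold a P and a number, namely 8, 12 and 13 in the GOLPH3-labelled libraries and 12, 11 and 13 in the Vector-labelled ones. Nothing states that the generations were separately derived lines, so p-values measure only the spread between these libraries.

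Classical cadherins are transmembrane proteins that bind the same cadherin on the neighbouring cell and so hold cells together at the adherens junction. Inside the cell their tail binds β-catenin or γ-catenin, which binds α-catenin and through it the actin cytoskeleton, while p120-catenin binds next to the membrane and keeps the cadherin at the surface. Epithelia such as the colon mucosa use mainly E-cadherin, and β-catenin has another role there as the transcriptional effector of Wnt signalling.

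The deposited values are called normalized reads here. The reason is that every nonzero value was, within a tolerance, a whole multiple of a fixed step per library, as read counts divided by a size factor are. The libraries held between 15708846 and 21900764 reads. A gene without reads could still have up to 3 reads at this depth, which is 2.47 to 3.29 normalized reads, and this limit covers counting error only. Levels were tested in limma on the scale log2(normalized reads + 1) over 26536 genes, with Benjamini-Hochberg adjustment over all of them and a threshold of 0.05. The GOLPH3 transcript had 1629.5, 1272 and 1383 normalized reads in the GOLPH3-labelled libraries and 1968, 1892 and 1472 in the Vector-labelled ones, so it was not higher in the former, and the labels are used as group names only. Of 11 colon epithelial markers, EPCAM, KRT8, KRT18, KRT19 and CLDN7 were abundant in both groups, whereas KRT20 had 0 reads in all 6 libraries and VIL1, LGALS4, CEACAM5, GPA33 and TFF3 were near 0. The summed level of 8 markers of HEK293 cells, a human embryonic kidney line, was 139.5 to 154 normalized reads in the GOLPH3-labelled libraries and 4048 to 11287 in the Vector-labelled ones. Of these markers, PAX2 was at a like level in both groups, and INA and LHX1 were near 0 in all libraries. Because all 3 libraries labelled Vector carried IRS4, NEFL, NEFM, UCHL1 and VIM, no comparison without such libraries could be made.

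Of the 10 genes, 9 passed the filter on low values and CTNNA2 did not. CDH3 and JUP rose and CDH2 fell in the GOLPH3-labelled libraries, so 3 of 9 genes passed the threshold, where 5.07% of all genes tested did (0.953% higher and 4.12% lower). The levels of CDH1, CDH3 and JUP lay higher in every GOLPH3-labelled library than in any labelled Vector, and those of CDH2 and CDH4 lay lower. Groups that did not overlap were thus found in 5 of 9 genes, where 22.0% of all genes tested had them (9.20% higher and 12.8% lower). Among the 4247 genes with a mean of at least 1000 normalized reads, the range of CDH1, CDH3, CTNNA1, CTNNB1 and JUP, 2.9% passed the threshold and 19.7% had groups that did not overlap. The median log2 fold change was 0.43 over the 9 genes and 0.02 over all genes tested. In bulk RNA, a smaller share of cells with a transcript and less of it per cell cannot be told apart.

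**Figure D1:**
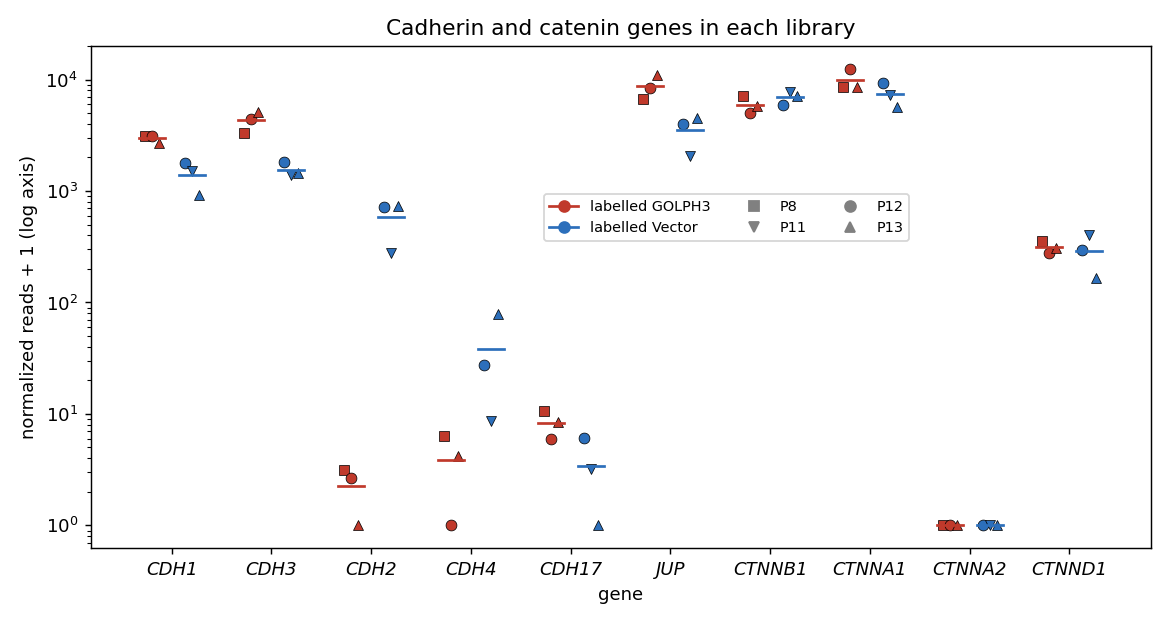
Normalized reads plus 1 on a log axis for the 10 genes in each of the 6 libraries. Red points are libraries labelled GOLPH3, blue points the Vector-labelled ones, the shape gives the number after P, and the horizontal lines are group means. The 3 red points lie above the 3 blue ones for CDH1, CDH3 and JUP and below them for CDH2 and CDH4, while CTNNA2 has 0 reads in every library.

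Promoter sequence in RefSeq on GRCh38.p14 was matched for 6 of the 10 genes (CDH2, CDH4, CTNNA1, CTNNA2, CTNNB1 and JUP), in 15 windows of 250 bases before an annotated transcript start. The windows were searched on both strands for CAGGTG, read as CACCTG on the other strand, the E-box that Snail and ZEB repressors bind, for GGGCGG or CCGCCC, the GC box, and for CCAAT or ATTGG. Over the 35116 windows of all genes, 17.5% held CAGGTG, 42.6% GGGCGG and 32.0% CCAAT, and the wider E-box CANNTG, which includes CAGGTG, was in 61.8%. CAGGTG was found in the upstream window of CDH4 and the downstream window of JUP only. The rest of the 15 windows lacked it, among them the upstream window of JUP, the 2 windows of CDH2 and the window of CTNNB1. The 2 windows of CDH4 lie inside the gene, which begins at 61252426 in GENCODE 29, and none lies before that position. The start called first for CDH2 is the more upstream of its RefSeq starts. Its window and that of CTNNB1 lie wholly in annotated exons, inside these genes. Sequence before the GENCODE 29 start of CDH2 or CTNNB1 was thus not searched. The sequences shown are those of CDH2, CDH4 and JUP, which had the largest log2 differences among the 6 genes with a matched promoter, with the motif letters in capitals. Where a window lies in annotated exons of its gene, only a short stretch around the motif is given. A match is a description of letters, and no binding was measured.
CDH4, chr20:61499171-61499420, plus strand, the 250 bases before an annotated start, with CAGGTG beginning 16 bases before it: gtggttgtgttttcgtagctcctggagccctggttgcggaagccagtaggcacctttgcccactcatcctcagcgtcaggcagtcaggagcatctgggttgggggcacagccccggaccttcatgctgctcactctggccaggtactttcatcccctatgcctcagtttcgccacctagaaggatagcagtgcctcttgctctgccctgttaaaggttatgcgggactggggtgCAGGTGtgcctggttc
CDH2, chr18:28036642-28036891, minus strand, the 250 bases before its internal start, with CCAAT: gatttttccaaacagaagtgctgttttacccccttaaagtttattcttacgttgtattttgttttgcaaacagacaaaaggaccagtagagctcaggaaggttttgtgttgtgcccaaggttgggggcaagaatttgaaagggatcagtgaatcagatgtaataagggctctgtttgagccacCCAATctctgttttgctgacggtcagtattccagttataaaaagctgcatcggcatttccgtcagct
CDH2, chr18:28177190-28177219, minus strand, around the ATTGG 76 bases before its first start: cagctcgctctccATTGGcggggagcggag
JUP, chr17:41786007-41786036, minus strand, around the CACCTG 54 and the CAGGTG 43 bases before its downstream start: tggcccCACCTGccgagCAGGTGagcgcac

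Among the cadherins, CDH1 encodes E-cadherin, the main cadherin of epithelia, and lies on chromosome 16 from 68737225 to 68835548 on the plus strand in the GENCODE 29 annotation of GRCh38, from which all gene positions here are taken. It had 3100.1, 3107 and 2704 normalized reads in the GOLPH3-labelled libraries and 1796, 1505 and 912 in the Vector-labelled ones. The lowest GOLPH3-labelled library thus stood above the highest labelled Vector. The group labelled Vector was the more uneven, with a coefficient of variation of 32.1% against 7.77%. The log2 fold change was 1.13 (standard error 0.31, 95% confidence interval 0.46 to 1.80) with a limma adjusted p of 0.0578, so CDH1 did not pass the threshold. A two-sided exact permutation test over the 6 levels gave p = 0.1, the smallest p that 3 libraries against 3 allow, and it gave the same for the other 4 genes whose groups did not overlap. The log2 difference was 0.79 between the libraries at P12, 1.57 between those at P13 and 1.04 between P8 and P11, with 1 library a side. Of 17 alternative settings, 3 put CDH1 past the threshold. These were DESeq2 (adjusted p = 0.0306), the P number as a block (adjusted p = 9.29e-07 by limma) and the P number as a covariate (adjusted p = 0.0425 by limma). The block fit compares only the libraries at P12 and at P13 and leaves 1 residual degree of freedom. It called 6082 of all genes tested.

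CDH3 encodes P-cadherin, a cadherin of basal epithelial layers, and is the neighbour of CDH1 on chromosome 16 (68636189 to 68722616, plus strand), ending 14608 bases before CDH1 begins. It had 3345, 4395 and 5139 normalized reads in the GOLPH3-labelled libraries and 1816, 1399 and 1443 in the Vector-labelled ones. Every library labelled GOLPH3 was higher than every Vector-labelled library. The means were 4293 ± 901 and 1552 ± 229 normalized reads (SD, n = 3 each). CDH3 rose, with a log2 fold change of 1.45 (standard error 0.28, 95% confidence interval 0.84 to 2.07, adjusted p = 0.00865 by limma). The log2 difference was 1.27 at P12, 1.83 at P13 and 1.26 between P8 and P11. The call was lost without GOLPH3 replicate 2 (adjusted p = 0.0941 by limma), without GOLPH3 replicate 3 (0.0616), without Vector replicate 3 (0.0581) and without both libraries at P12 (0.298, or 0.129 in edgeR), while the log2 fold change stayed between 1.31 and 1.62 over all alternatives.

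The other protein-coding genes within 200 kb of this pair were SMPD3, ZFP90 and TANGO6, chosen for their position. Their log2 fold changes were 0.79, -0.65 and -0.03 (adjusted p = 0.517 by limma, 0.370 and 0.972). None of the 3 neighbours passed the threshold.

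CDH2 encodes N-cadherin, the cadherin of neural and mesenchymal cells, and is annotated on chromosome 18 (27950966 to 28177446, minus strand). It had 2, 2 and 0 reads in the GOLPH3-labelled libraries, which is 2.15, 1.65 and 0 normalized reads. In the Vector-labelled libraries it had 717, 279 and 737 normalized reads. The former lay at or under the limit of 3 reads and the latter were all at least 279. CDH2 fell, with a log2 fold change of -8.03 (standard error 0.60, 95% confidence interval -9.34 to -6.72, adjusted p = 7.35e-06 by limma). Over the pooled reads, 4 against 1811, the normalized level was 457-fold lower. Its exact 95% counting interval, from 178-fold to 1681-fold, takes no account of the spread between libraries. The log2 difference was -8.08 at P12, -9.53 at P13 and -6.48 between P8 and P11. CDH2 kept its call in 15 of 16 alternative settings that tested it, the exception being limma without the libraries at P12 (adjusted p = 0.0802).

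As a sum, the HEK293 markers were lower in the GOLPH3-labelled libraries, as CDH2 was. Of the 8 markers, 7 were tested, with a median log2 fold change of -8.60 (-7.39 when silent genes were set to their bound). Of these, 5 fell (IRS4, NEFL, NEFM, UCHL1 and VIM) and 0 rose, where 4.12% of all genes tested fell and 0.953% rose. IRS4, NEFL, NEFM and UCHL1 could pass the filter on low values only through the Vector-labelled libraries, so the filter fixed their direction in advance. PAX2 was at a like level in both groups, with means of 125.5 and 113 normalized reads, while INA and LHX1 were near 0 in all libraries. The summed level of the 8 markers was 6817, 4048 and 11287 normalized reads in Vector replicates 1, 2 and 3. Replicate 2 was the lowest of the 3 for this sum as for CDH2, and so it was for IRS4, UCHL1 and VIM. NEFL (372, 383 and 742) and NEFM (346, 501 and 612) were lowest in replicate 1 instead. The part of the markers in the CDH2 result was not tested.

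CDH4 encodes R-cadherin, found in retina and brain, and is annotated on chromosome 20 (61252426 to 61940617, plus strand). It had 5, 0 and 3 reads in the GOLPH3-labelled libraries and 26, 7 and 91 in the Vector-labelled ones. In normalized reads these were 5.37, 0 and 3.20 against 26.8, 7.67 and 78.1. The groups did not overlap, but Vector replicate 2 lay close to GOLPH3 replicate 1. The log2 fold change of -3.16 (standard error 0.91, 95% confidence interval -5.13 to -1.18) did not pass the threshold (adjusted p = 0.0725 by limma). Over pooled reads, 8 against 124, the level was 15.7-fold lower, with an exact 95% counting interval from 7.70 to 37.1 that takes no account of the spread between libraries. Vector replicate 3 held 91 of the 124 reads, and the pooled level was 6.74-fold lower without it, 29.1-fold lower without GOLPH3 replicate 1 and 9.50-fold lower without GOLPH3 replicate 2. CDH4 passed with DESeq2 (adjusted p = 0.00232), with the P number as a block (adjusted p = 7.35e-07 by limma), with the replicate block (0.0433) and without Vector replicate 2 (0.0416). The fit with the P number as a block leaves 1 residual degree of freedom.

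CDH17 encodes LI-cadherin, a cadherin of liver and intestine that lacks the catenin-binding tail of the classical ones, on chromosome 8 (94127171 to 94217303, minus strand). It had 9, 6 and 7 reads in the GOLPH3-labelled libraries and 5, 2 and 0 in the Vector-labelled ones. The normalized levels of 4.95 to 9.66 and 0 to 5.15 overlapped. The log2 fold change was 1.59 (standard error 0.75, 95% confidence interval -0.05 to 3.24) and did not pass the threshold (adjusted p = 0.304 by limma). Pooled over the libraries, 22 reads against 7 gave a ratio of 3.11, with an exact 95% counting interval of 1.28 to 8.62 that takes no account of the spread between libraries. The ratio was 7.42 without Vector replicate 1 and 1.92 without Vector replicate 3. CDH17 was thus close to the limit of detection in HCT-116 libraries of both labels.

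**Figure D2:**
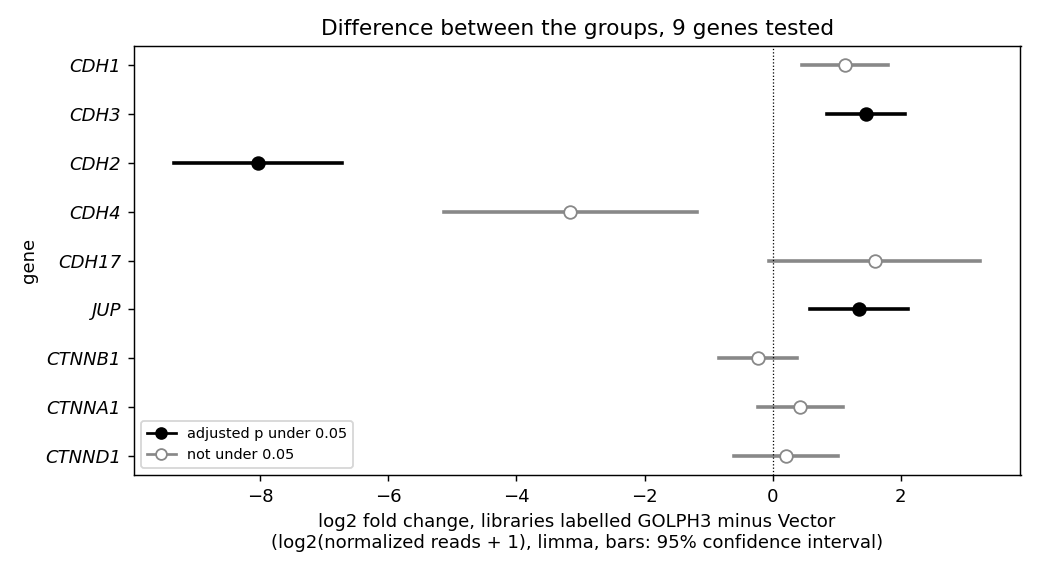
Log2 fold change of the 9 genes tested, libraries labelled GOLPH3 minus Vector, with 95% confidence intervals from limma. Filled points (CDH3, CDH2 and JUP) had an adjusted p under 0.05, and open points did not. The intervals of CTNNA1, CTNNB1, CTNND1 and CDH17 include 0.

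Among the catenins, JUP encodes γ-catenin or plakoglobin, which sits in both adherens junctions and desmosomes, and is annotated on chromosome 17 (41754604 to 41786931, minus strand). It had 6637, 8387 and 10975 normalized reads in the GOLPH3-labelled libraries and 4032, 2046 and 4498 in the Vector-labelled ones. The groups did not overlap. The means were 8666 ± 2182 and 3525 ± 1302 normalized reads (SD, n = 3 each). JUP rose, with a log2 fold change of 1.35 (standard error 0.35, 95% confidence interval 0.58 to 2.11) and a limma adjusted p of 0.0473, just inside the threshold. The log2 difference was 1.06 at P12, 1.29 at P13 and 1.70 between P8 and P11. JUP passed in only 6 of 17 alternative settings. It was lost with edgeR (adjusted p = 0.0551), with quantile normalization (adjusted p = 0.0851 by limma), with a pseudocount of 0.1 (0.0765), with a minimum of 1 in every library (0.0805) and with the replicate block (0.0649). It was also lost without the libraries at P12 (adjusted p = 0.472 by limma). Leaving out GOLPH3 replicate 2 or 3 gave limma adjusted p-values of 0.250 and 0.222, and leaving out Vector replicate 1, 2 or 3 gave 0.110, 0.144 and 0.0871. Its log2 fold change lay between 0.99 and 1.56 over all alternatives.

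CTNNB1 encodes β-catenin (chromosome 3, 41194741 to 41260096, plus strand). It had 7084, 4966 and 5763 normalized reads in the GOLPH3-labelled libraries and 5966, 7659.8 and 7117 in the Vector-labelled ones. The groups overlapped. The log2 fold change was -0.23 (95% confidence interval -0.83 to 0.38, adjusted p = 0.727 by limma), and this interval leaves out a doubling in either direction.

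CTNNA1 encodes αE-catenin, the α-catenin of epithelia (chromosome 5, 138610967 to 138935034, plus strand). It had 8606, 12495 and 8619.9 normalized reads in the GOLPH3-labelled libraries and 9269.8, 7203 and 5686 in the Vector-labelled ones. The groups overlapped, and the log2 fold change of 0.43 (standard error 0.30, 95% confidence interval -0.23 to 1.09) did not pass the threshold (adjusted p = 0.513 by limma). CTNNA2, which encodes the αN-catenin of neurons (chromosome 2, 79185231 to 80648861, plus strand), had 0 reads in all 6 libraries, which allows up to 3 reads in each.

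CTNND1 encodes p120-catenin (chromosome 11, 57753243 to 57819546, plus strand). It had 352, 275 and 309.6 normalized reads in the GOLPH3-labelled libraries and 292, 405 and 164 in the Vector-labelled ones. The groups overlapped, with both the highest and the lowest level among the Vector-labelled libraries. The log2 fold change was 0.21 (standard error 0.37, 95% confidence interval -0.61 to 1.02, adjusted p = 0.824 by limma), and it changed sign to -0.15 without Vector replicate 3. The read-through gene TMX2-CTNND1, which RefSeq places from 57712523 to 57819180, covers most of CTNND1 on the same strand. The annotation release behind the counting is not given in the sources used here, so the level of CTNND1 is uncertain wherever reads in shared exons were set aside, and this was not tested.

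The levels of different genes were compared as normalized reads per kilobase of annotated exons. In the GOLPH3-labelled libraries the order was JUP (1754 ± 442), CTNNA1 (1122 ± 254), CDH3 (688 ± 145), CTNNB1 (498 ± 89.7), CDH1 (481 ± 37.4) and CTNND1 (35.5 ± 4.41), each with its SD over 3 libraries. CDH17, CDH4 and CDH2 followed at means of 1.89, 0.389 and 0.256. The ranges of JUP and CTNNA1 overlapped in this order, as did those of CDH3 and CTNNB1 and those of CTNNB1 and CDH1, while CDH3 (536 to 824) lay above CDH1 (438 to 503) in each of these libraries. In the Vector-labelled libraries the order was CTNNA1 (837 ± 204), JUP (713 ± 263), CTNNB1 (580 ± 72.5), CDH3 (249 ± 36.7), CDH1 (227 ± 72.9), CDH2 (117 ± 52.3) and CTNND1 (32.6 ± 13.7), again with SD over 3 libraries. There the ranges of neighbours overlapped from CTNNA1 to CTNNB1 and from CDH3 to CDH2, but not between CTNNB1 and CDH3 or between CDH2 and CTNND1. The order of CTNNA1, JUP and CTNNB1 depends on the length used. Annotated exons span 8830 bases for CTNNA1, 4942 for JUP and 11927 for CTNNB1. The transcripts with the longest coding sequence span 3756, 3497 and 3127 bases. Per kilobase of such transcripts the GOLPH3-labelled libraries had CTNNA1 first (2638 ± 597), then JUP (2478 ± 624) and CTNNB1 (1899 ± 342), and the Vector-labelled ones had CTNNB1 first (2211 ± 277), then CTNNA1 (1967 ± 479) and JUP (1008 ± 372). CTNNB1 was then above CDH3 (871 ± 183 and 315 ± 46.5) in both groups.

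The classical cadherins CDH1, CDH2, CDH3 and CDH4 summed to 1039, 1208 and 1262 normalized reads per kilobase in the GOLPH3-labelled libraries and to 731, 525 and 539 in the Vector-labelled ones. The sums of the groups did not overlap. CDH3 took 51.6%, 58.3% and 65.3% of the sum in the GOLPH3-labelled libraries and 39.9%, 42.7% and 43.0% in the Vector-labelled ones. CDH2, with 2, 2 and 0 reads and so under the limit of 3 reads, took 0.0417%, 0.0276% and 0% in the former and 19.8%, 10.7% and 27.7% in the latter. The share of CDH1 overlapped between the groups, with means of 41.5% ± 6.80 and 37.9% ± 9.62 (SD, n = 3 each). CDH1 and CDH3 together thus made up 99.9% of this sum in the GOLPH3-labelled libraries and 79.7% ± 9.34 (SD, n = 3) in the Vector-labelled ones. The sum leaves out other cadherins, such as CDH24. These shares are given without a test.

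**Figure D3:**
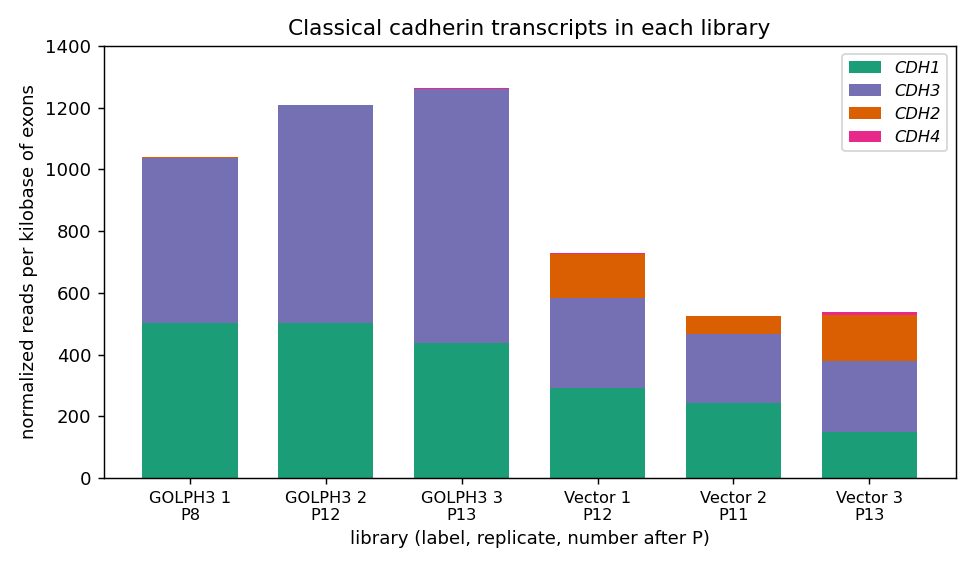
Normalized reads per kilobase of annotated exons of CDH1, CDH2, CDH3 and CDH4, stacked for each library. The label, replicate and number after P stand below each bar. The bars of the GOLPH3-labelled libraries reach 1039 to 1262 and consist of CDH1 and CDH3, whereas the Vector-labelled ones reach 525 to 731 and include CDH2 at 10.7% to 27.7% of the bar.

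Ratios within a library do not depend on the size factors. CDH1 had 963, 1256 and 844 times the reads of CDH2 in the GOLPH3-labelled libraries, with CDH2 set to the limit of 3 reads, and 2.50, 5.39 and 1.24 times in the Vector-labelled ones. The ratio was lowest in Vector replicate 3, where CDH1 and CDH2 stood at 148 and 149 normalized reads per kilobase of exons. Per kilobase of the transcript with the longest coding sequence they stood at 187 and 170 there, and CDH1 was above CDH2 in the other 5 libraries with either length. JUP had 0.937, 1.69 and 1.90 times the reads of CTNNB1 in the GOLPH3-labelled libraries and 0.676, 0.267 and 0.632 times in the Vector-labelled ones, with no overlap. The share of JUP in JUP plus CTNNB1, per kilobase of annotated exons, was 77.3% ± 6.92 and 53.9% ± 12.7 (SD, n = 3 each). It was 56.3% and 31.0% per transcript length and 60.1% and 34.5% per coding length, so JUP was the smaller part in the Vector-labelled libraries with these lengths. The ratio of CDH3 to CDH1 reads overlapped, at 1.08, 1.41 and 1.90 against 1.01, 0.929 and 1.58.

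Of 17 other cadherins, 8 were tested, with a median log2 fold change of 0.10 (0.13 with silent genes at their bound). CDH7 and CDH10 fell and 0 rose, where 4.12% of all genes tested fell and 0.953% rose. Both encode cadherins known from the nervous system. CDH7 had 0 reads in the GOLPH3-labelled libraries and 36.0, 4.38 and 85.8 normalized reads in the Vector-labelled ones, at least 14.2-fold lower with the limit of 3 reads per library averaged over the group (adjusted p = 0.00856 by limma), or at least 6.81-fold without Vector replicate 3. CDH10 had 0 reads against 5.15, 3.29 and 4.29 normalized reads (5, 3 and 5 reads), at least 1.43-fold lower (adjusted p = 0.0471 by limma). CDH7 and CDH10 could pass the filter on low values only through the Vector-labelled libraries. The filter thus fixed their direction and the lack of overlap in advance. The CDH7 call was lost without GOLPH3 replicate 2 (adjusted p = 0.142 by limma) and without Vector replicate 3 (0.0752), and that of CDH10 when any of the 6 libraries was left out (0.0508 to 0.155). CDH6, CDH9 and CDH19 had 0 reads in all libraries. CDH24 was the most abundant of the 17, with means of 679 and 595 normalized reads (log2 fold change 0.23, adjusted p = 0.765 by limma).

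Of 7 other catenin family genes, 6 were tested and 0 passed in limma, with 2 at an unadjusted p under 0.05, where 17.6% of all genes tested had such a p, and a median log2 fold change of 0.04. ARVCF, a relative of p120-catenin, had means of 1305 ± 388 and 511 ± 178 normalized reads (SD, n = 3 each), and the difference of 1.37 on the log2 scale did not pass (adjusted p = 0.0530 by limma). CTNNBIP1, an inhibitor of β-catenin binding to TCF factors, had a log2 fold change of 0.82 (adjusted p = 0.209 by limma). The groups of both did not overlap, which was found for 22.0% of all genes tested.

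All 18 junction partners and regulators of E-cadherin turnover were tested, and 0 passed in limma, with a median log2 fold change of 0.19. An unadjusted p under 0.05 was found for 4 of them, where 17.6% of all genes tested had such a p. EZR, which encodes the membrane-actin linker ezrin, had a log2 fold change of 1.02 (adjusted p = 0.110 by limma), and ACTN1, which encodes the actin cross-linker α-actinin 1, had 0.74 (0.212). VCL, which encodes vinculin, the partner of α-catenin under tension, was at 5202 and 5206 normalized reads on average (log2 fold change 0.00, adjusted p = 0.999 by limma). All 10 genes of the β-catenin destruction complex were tested, and 0 passed in limma, with 1 at an unadjusted p under 0.05 and a median log2 fold change of -0.02. The smallest p-values belonged to AMER1 (log2 fold change -0.83, adjusted p = 0.264 by limma) and APC2 (0.80, adjusted p = 0.406 by limma).

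The cadherin gene regulators were the only one of these 5 lists with calls in both directions. Of 17 genes, 15 were tested, with a median log2 fold change of 0.18. Of these, 2 rose and 4 fell, where 0.953% of all genes tested rose and 4.12% fell. OVOL1 and ESRP2, an epithelial transcription factor and an epithelial splicing regulator, rose. OVOL1 had 312, 446 and 695 normalized reads in the GOLPH3-labelled libraries and 192, 137 and 162 in the Vector-labelled ones (log2 fold change 1.49, adjusted p = 0.0340 by limma). ESRP2 had 1088, 1829.8 and 1547 against 567, 572 and 499 normalized reads (log2 fold change 1.42, adjusted p = 0.0136 by limma). Both were higher in every GOLPH3-labelled library than in any Vector-labelled one. Without GOLPH3 replicate 2 or 3 or Vector replicate 1 or 3 neither passed in limma (adjusted p = 0.0886 to 0.2001 for OVOL1 and 0.0702 to 0.109 for ESRP2), and OVOL1 was also lost without Vector replicate 2 (0.110).

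ZEB1, ZEB2, TWIST2 and TCF4, transcription factors known to repress CDH1 in mesenchymal programs, fell. ZEB1 had 46.2, 111 and 23.5 normalized reads in the GOLPH3-labelled libraries and 398, 388 and 329 in the Vector-labelled ones (log2 fold change -2.87, adjusted p = 0.00403 by limma). ZEB2 and TWIST2 had 0 reads in the GOLPH3-labelled libraries and lay lower by at least 124-fold and 29.6-fold. TCF4 had 1 read there against 798, which is 806-fold lower. Its exact 95% counting interval, from 144-fold to 31884-fold, takes no account of the spread between libraries. ZEB2, TWIST2 and TCF4 could pass the filter on low values only through the Vector-labelled libraries, so the filter fixed their direction in advance. Like CDH2 and the summed HEK293 markers given above, ZEB1, ZEB2, TWIST2 and TCF4 were lower in the GOLPH3-labelled libraries. Among the Vector-labelled libraries, TWIST2 and TCF4 followed the order of the summed markers. ZEB1 was lowest in Vector replicate 3, where that sum was highest, and ZEB2 was highest in Vector replicate 1. The part of the markers was not tested. SNAI2, which encodes Slug, had 15.0, 517 and 63.0 against 1354, 429 and 851 normalized reads, so its groups overlapped through GOLPH3 replicate 2 and it did not pass (log2 fold change -3.29, adjusted p = 0.0716 by limma). The CDH1 repressors SNAI1 and TCF3 had higher means in the GOLPH3-labelled libraries and did not pass, with log2 fold changes of 0.80 (adjusted p = 0.425 by limma) and 0.74 (0.236). SNAI1 had 281, 238 and 892 normalized reads against 188, 309 and 192, so its groups overlapped and GOLPH3 replicate 3 stood apart.

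**Figure D4:**
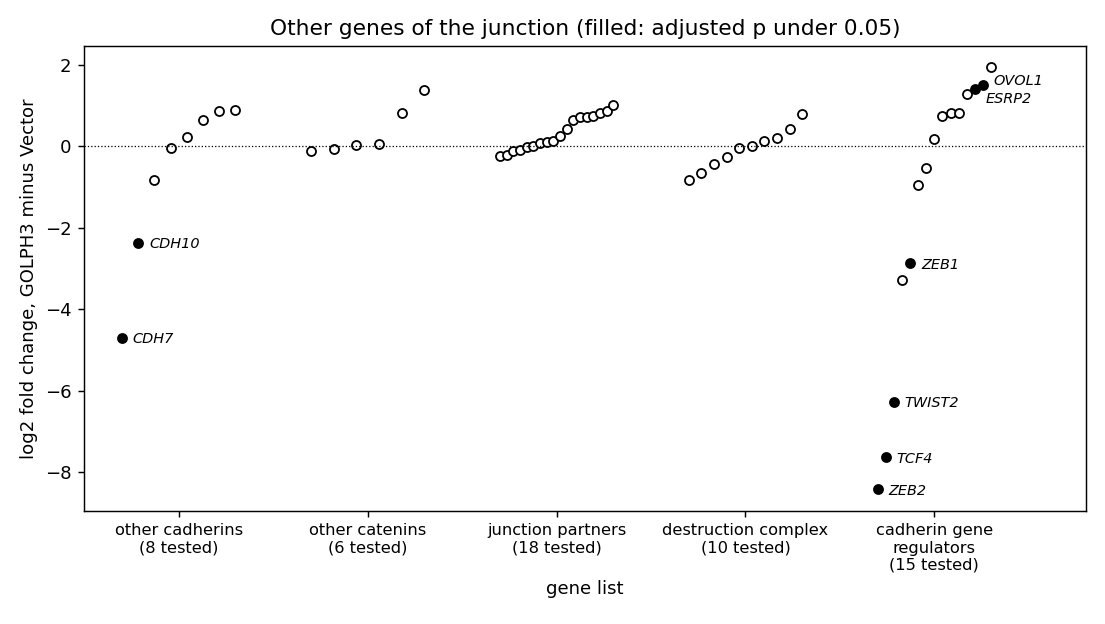
Log2 fold change of every tested gene in 5 lists, libraries labelled GOLPH3 minus Vector, ordered by value within each list. Filled points had a limma adjusted p under 0.05 and carry their symbol, and open points did not. CDH7 and CDH10 are the called cadherins, and all 6 other called genes are regulators.

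The genes with the profiles most like those of CDH1, CDH2, CDH17 and JUP were sought among 12661 genes (12662 for CDH17) with a mean of at least 50 normalized reads, by the root mean square difference of centred log2 profiles over the 6 libraries. CDH1 was nearest to TPD52L1 (0.06), TMC5 (0.07) and ICA1 (0.11), where its own spread about its mean was 0.64. TPD52L1 had 998, 914 and 782 normalized reads in the GOLPH3-labelled libraries and 509, 449 and 279 in the Vector-labelled ones. CDH2 was nearest to BMP2 (0.27), ID4 (0.31) and SUSD5 (0.35), with an own spread of 4.07. BMP2 had 7.51, 11.5 and 2.13 normalized reads against 2296, 1113 and 3015. CDH17, itself at a few reads, had nearest genes at 0.45 or more (SLCO1B3, NKD2 and LIPH), with an own spread of 1.13. JUP was nearest to SREBF1 (0.10), STXBP2 (0.11) and H2BC5 (0.11), with an own spread of 0.79. With 6 libraries and this many genes, near matches are found for many profiles, and the measure describes likeness only.

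**Figure D5:**
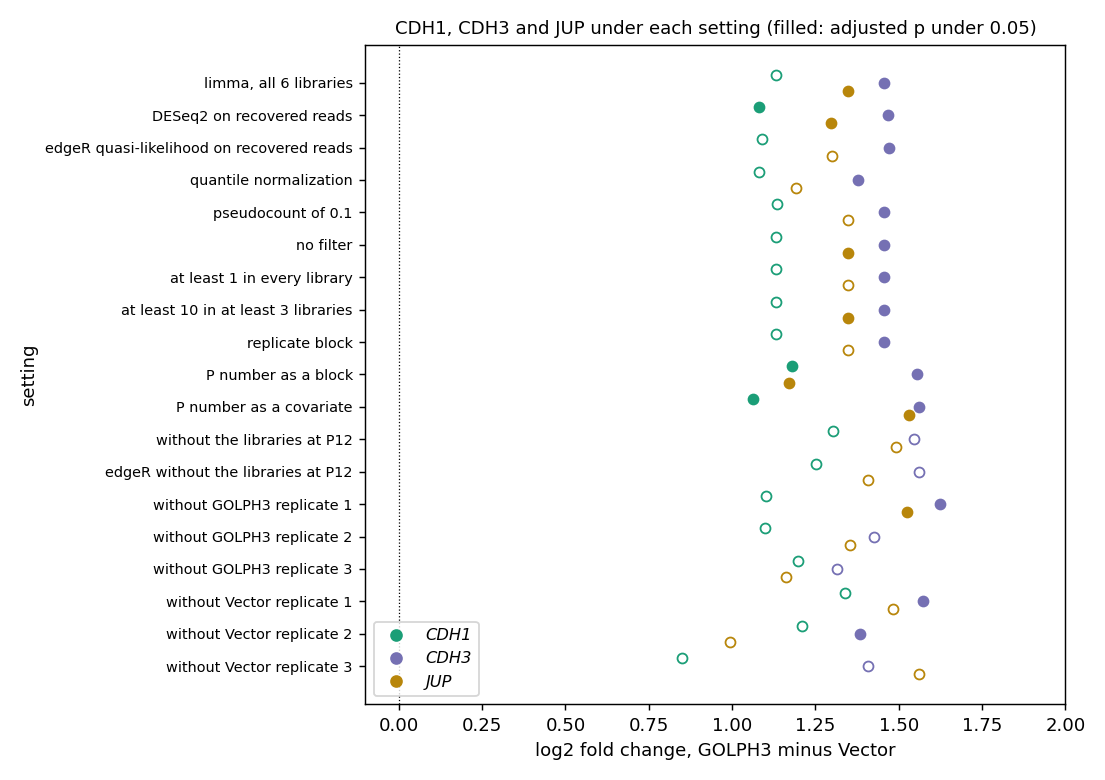
Log2 fold change of CDH1, CDH3 and JUP under limma with all 6 libraries and under 18 alternatives, libraries labelled GOLPH3 minus Vector. Filled points had an adjusted p under 0.05. All points lie between 0.85 and 1.62 on the axis, CDH3 is filled in most settings, JUP in 7 of 19 and CDH1 in 3 of 19.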

How the data were processed

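RNA-seq of 3 HCT-116 libraries labelled GOLPH3 and 3 labelled Vector was analysed. The submitters' processing notes name fastp 0.20.0, HISAT2 2.1.0, featureCounts 1.6.1, Cufflinks, DESeq2 and GRCh38, without roles. The deposited signal was made by the authors as read counts over a size factor for each library, and gene length was not corrected for. All nonzero values (100%) were whole multiples of a step within a tolerance of 0.01 of a read, so reads were recovered. For high counts the tolerance widened in proportion to the count, so the check was weaker there. The table held 60590 rows for 60546 identifiers, and 44 repeated rows were added up. Of the identifiers, 58367 (96.4%) were in GENCODE 29.

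limma 3.58.1 in R 4.3.3, with a mean-dependent prior variance, was fitted to log2(value + 1) of genes with at least 1 in at least 3 libraries, two-sided. Fold changes of low genes are understated on this scale. edgeR 4.0.16 (quasi-likelihood) and DESeq2 1.42.0 were applied to the recovered reads as alternatives, and called 1113 genes (250 higher, 863 lower) and 1991 genes (603 higher, 1388 lower) against 1346 with limma (253 higher, 1093 lower). DESeq2 gave no adjusted p for 13393 genes. Other alternatives were quantile normalization, a pseudocount of 0.1, other filters, the replicate or P number as a block, the P number as a covariate, removal of the P12 libraries, leave-one-out, and other gene lengths. edgeR without the P12 libraries was added after seeing the data. The scripts were tested on simulated data. No pair of libraries in a group agreed within sampling noise (chi-square per degree of freedom at least 65.3), so none was treated as a duplicate.

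The members and all lists were chosen with earlier results of these data known. Genes were named as members, as list genes past the threshold or else the 2 with the smallest p, and as the 3 nearest profiles. VCL, CDH24, SNAI1, SNAI2, TCF3, PAX2 and genes with 0 reads were named after their values were seen.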

Additional observations from a re-analysis of the deposited data

How the results depend on the processing

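Over the 9 genes and 17 alternative settings, 146 values were obtained, of which 122 kept direction and side of the threshold, 16 kept direction but lost the call, 7 kept direction and gained it, and 1, CTNND1 without Vector replicate 3, changed sign (-0.15). The number of the 9 genes called, 3 with limma, was 5 with DESeq2, 5 with P number blocks (which leaves 1 residual degree of freedom), 1 with a minimum of 1 in every library, and 1 to 3 with each library left out (1 without GOLPH3 replicate 2 or 3 or Vector replicate 3). It was 0 without the P12 libraries in limma, where 5 of the 9 had an unadjusted p under 0.05, and 1 in edgeR. The genes called over the 5 pathway lists, 8 with limma, were 2 with a minimum of 1 in every library, 25 with P number blocks, 16 with P as a covariate, 0 without the P12 libraries (12 unadjusted; 5 in edgeR), and 4 to 8 with each library left out. Over all genes, 1346 with limma, the counts were 405, 6082, 2399, 0 (2683 unadjusted), 588 and 581 to 1337 in the same order. The low ends came without GOLPH3 replicates 2 or 3 or Vector replicates 1 or 3. The share of JUP in JUP plus CTNNB1 was 56.3% and 31.0% per transcript length and 60.1% and 34.5% per coding length. Replicate numbers did not pair the libraries, since same-numbered deviations correlated at -0.232, -0.151 and 0.259. Libraries with the same P number correlated at 0.256 (P12) and 0.259 (P13), and P8 with P11, which share no number, at 0.331, and all other combinations were negative. With the replicate block 1081 genes, 3 of the 9 genes (JUP lost, CDH4 gained) and 6 list genes were called. With 3 libraries a group, changes of low genes such as CDH4 and CDH17 were limited by counts of under 10 reads in every GOLPH3-labelled library.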

Other observations

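Of 11 colon epithelial markers, 9 were tested, with a median log2 fold change of 1.23 (1.06 when silent genes were set to their bound). KRT18 and KRT19, keratins of simple epithelia, rose (log2 fold change 1.26 and 1.92, adjusted p = 0.0363 by limma and 0.00440). In this list 0 genes fell, where 0.953% of all genes tested rose and 4.12% fell. KRT18 was lost when any of the 6 libraries was left out (adjusted p = 0.0522 to 0.189 by limma), and KRT19 without GOLPH3 replicate 2 (0.0691). KRT19 had 14821, 15634 and 29097 normalized reads in the GOLPH3-labelled libraries and 5292, 3794 and 6139 in the Vector-labelled ones. The summed level of the list was 66597 to 135901 normalized reads against 29915 to 40548. Whether these markers bear on the levels of CDH1, CDH3 and JUP was not tested.

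The fibroblast, neuronal, endothelial and immune markers gave 0 calls in limma in each list. NEFL, NEFM, UCHL1 and VIM, which fell, were placed only among the HEK293 markers. The 0 calls thus cover only the genes placed in these lists. The summed fibroblast markers were at 824 to 1517 against 480 to 786 normalized reads, mostly COL1A1 (log2 fold change 0.91, adjusted p = 0.151 by limma), with LUM at -1.94 (0.177), DCN at 0 reads and 4 of 5 tested at an unadjusted p under 0.05, where 17.6% of all genes tested were. The neuronal ones were at 992 to 1324 against 345 to 757, with SYT1 at a log2 fold change of 1.04 (adjusted p = 0.228 by limma), TUBB3 at 1.37 (0.229), ELAVL4 at 0 reads and 2 of 3 tested at an unadjusted p under 0.05. The endothelial ones were at 24.7 to 45.1 against 29.6 to 42.1 and the immune ones at 8.25 to 37.4 against 13.4 to 26.6, with 0 at an unadjusted p under 0.05.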
